A study of Mus musculus with 58 samples.

Results

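Dcx, Sox4, Sox11, Tubb3, Dpysl3, Stmn1, Mki67 and Top2a are 8 genes that mark young neurons and dividing cells. They were chosen by name, through the Ensembl gene identifiers of the deposited table, and all 8 of them were found among its 18088 genes. Newborn neurons leave the cell cycle and then make proteins that remodel microtubules and the growth cone while they migrate and extend processes. In the weeks after birth the mouse cortex receives few new neurons, whereas the olfactory bulb keeps receiving them from the wall of the lateral ventricle. Dividing cells in the juvenile cortex are mostly glial, in particular oligodendrocyte precursors. Dcx, Sox4, Sox11, Dpysl3, Tubb3 and Stmn1 stand for the young neuron and Mki67 and Top2a for the dividing cell, although Tubb3 and Stmn1 stay on in mature neurons.

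The data were RNA sequencing of prefrontal cortex from C57BL/6J mice at postnatal day 25, in 58 libraries of 12 groups. The mice were wild type (WT) or heterozygous (HT) for a Tbl1xr1 knock-in, a gene whose product belongs to the NCoR/SMRT corepressors. The labels do not say what the knock-in changes. Pups of both sexes took vehicle, fluoxetine (a serotonin reuptake inhibitor) or lithium (a mood stabiliser) from maternal milk from day 3 to day 24. Females and males made up separate groups, and each of the 12 held 5 libraries except the female and the male WT lithium groups, which held 4. The labels give neither dam nor litter, so litter and drug cannot be told apart, and nor do they tie libraries to individual animals, so the p-values speak to the spread among libraries, which may in part be technical.

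Depth ran from 22.9 to 35.01 M recovered reads per library. Markers of mature cortical neurons were found in every library, and none of the 11 was at 0 anywhere. Their lowest counts ran from 306 for Pvalb to 66135 for Camk2a. Slc17a7, the vesicular glutamate transporter of cortical projection neurons, was at 36362 or more. The 9 markers of olfactory bulb neurons in the table, by contrast, differed widely between libraries of the same group. Their summed normalised read count ran from 1203 to 24745 in the 10 WT vehicle libraries, from 1857 to 23494 with fluoxetine in WT and from 1032 to 18396 with lithium in WT. In HT it ran from 1227 to 14354 with vehicle, from 1139 to 14799 with fluoxetine and from 1034 to 19233 with lithium. Among these markers Eomes was at 0 in 1 library, Tbx21 in 2 and Barhl2 in 6. In bulk tissue, fewer cells of a type and less RNA per cell cannot be told apart.

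Values below are normalised read counts (reads divided by a size factor of the library), given with the SD over libraries, and log2 changes are on the log2(count + 1) scale with the standard error of the model. A gene is said to have risen or fallen when its limma p-value, adjusted over 16606 genes, was under 0.05.

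Per kilobase of exon, Stmn1 and Tubb3 were the most abundant of the 8, at 8558 and 6546 normalised reads per kilobase. Dpysl3 followed at 389, Sox4 at 312 and Dcx at 302, then Sox11 at 72.9. Mki67 and Top2a were lowest, at 10.1 and 9.62, or between 36 and 161 reads per library, so their values carried more counting error than those of the other members. The 8 genes also differed in how much they varied within a group. The within-group SD on the log2 scale was 0.725 for Dcx, 0.523 for Top2a, 0.511 for Mki67, 0.490 for Sox4, 0.334 for Dpysl3 and 0.322 for Sox11, against 0.119 for Tubb3 and 0.101 for Stmn1. Among the 2875 genes whose mean lay within 2-fold of that of Dcx, 99.9% had a smaller SD. The highest library exceeded the lowest by 6.08-fold for Dcx and by 1.39-fold for Stmn1.

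**Figure D1:**
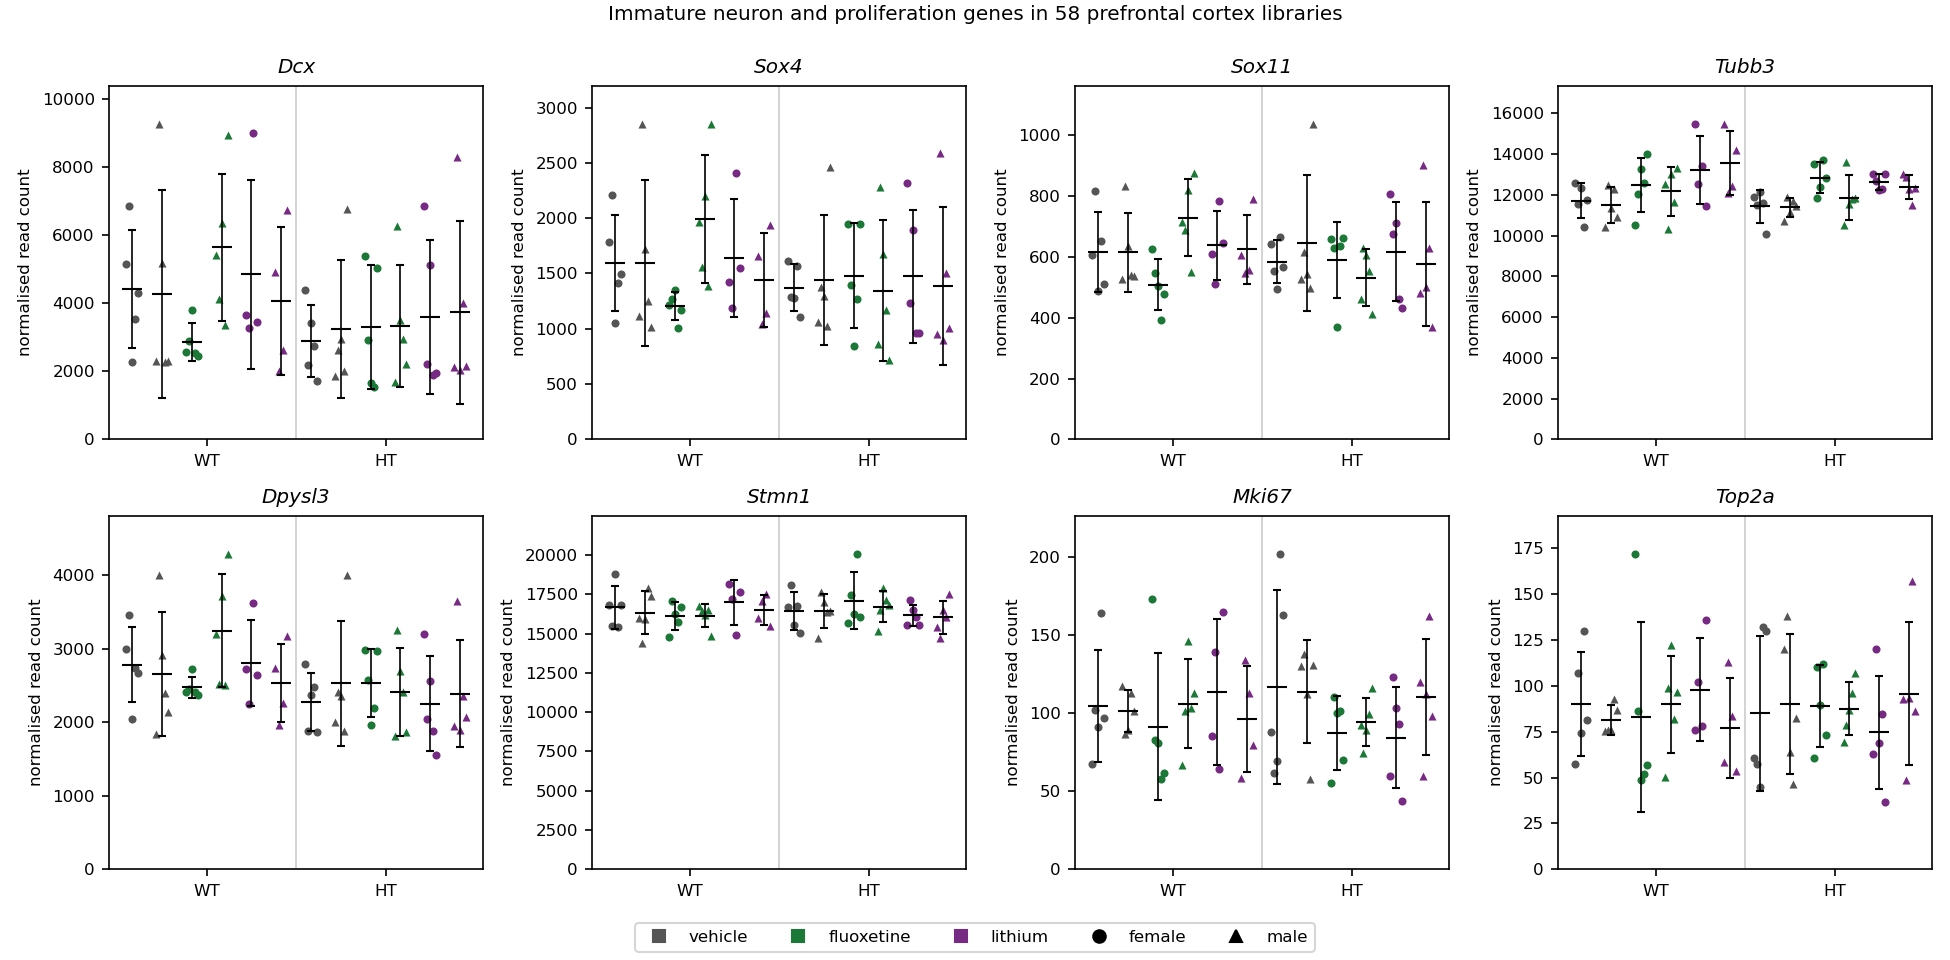
Normalised read counts (linear axis from 0) of the 8 genes in 58 libraries, with a point per library, coloured by treatment and shaped by sex, and with bars for the mean and SD of each group. Single libraries far above their group stand out for Dcx, up to 9260 in WT vehicle male 2, whereas Tubb3 stays between 10077 and 15482 in all groups.

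Dcx (ENSMUSG00000031285, chromosome X, 143855842 to 143933311, minus strand, GRCm38) encodes doublecortin, a microtubule-binding protein of migrating neurons. In WT vehicle females its counts were 5152, 6846, 2256, 3544 and 4292, and in WT vehicle males 2306, 9260, 5162, 2271 and 2295. With fluoxetine WT females had 2567, 2899, 3791, 2525 and 2446 and WT males 5396, 4131, 6360, 3368 and 8922. With lithium WT females had 3662, 3263, 9001 and 3443 and WT males 4919, 1998, 2630 and 6729. WT vehicle male 2 and WT lithium female 3 each lay far above the other libraries of their group.

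In HT vehicle females the Dcx counts were 4386, 2172, 3410, 2742 and 1703, and in HT vehicle males 1846, 2625, 2959, 1992 and 6754. With fluoxetine HT females had 5380, 2915, 1666, 1522 and 5016 and HT males 1674, 6276, 3514, 2951 and 2217. With lithium HT females had 6850, 2200, 5112, 1881 and 1959 and HT males 2130, 8294, 2033, 4016 and 2161. Every HT group overlapped with the WT group of the same sex and treatment. The group means lay between 2845 ± 556 (SD, n = 5) in WT fluoxetine females and 5636 ± 2167 in WT fluoxetine males. In that order, all 11 pairs of neighbouring groups were closer than the larger SD of the pair.

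Over the 3 treatments Dcx was 4337 ± 2174 (SD, n = 28) in WT and 3345 ± 1841 (n = 30) in HT. The difference was -0.40 ± 0.18 on the log2 scale, with an interval from -0.77 to -0.03, and missed the threshold (limma adjusted p = 0.286). Vehicle, fluoxetine and lithium libraries of both genotypes had 3699 ± 2035 (n = 20), 3777 ± 1918 (n = 20) and 4016 ± 2308 (n = 18). The drug differences were 0.04 ± 0.22 for fluoxetine and 0.11 ± 0.23 for lithium, with limma adjusted p of 0.950 and 0.873. The interval for lithium ran from -0.35 to 0.56, so changes of either sign within it remain compatible with these values.

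Dpysl3 (ENSMUSG00000024501, minus strand) encodes CRMP4, a cytosolic protein of the growth cone. It was 2754 ± 611 (n = 28) in WT and 2396 ± 586 (n = 30) in HT, a difference of -0.20 ± 0.08 that missed the threshold (limma adjusted p = 0.236). The lowest, median and highest counts were 1842, 2653 and 4289 in WT and 1548, 2357 and 3998 in HT, so the genotypes overlapped over most of their range.

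Sox4 (ENSMUSG00000076431, chromosome 13, 28948919 to 28953713, minus strand) and Sox11 (ENSMUSG00000063632, chromosome 12, 27334264 to 27342574, minus strand) encode SoxC transcription factors that act in neuronal differentiation. Sox4 ranged from 721 in HT fluoxetine male 5 to 2853 in WT fluoxetine male 5, with 1580 ± 526 (n = 28) in WT and 1417 ± 515 (n = 30) in HT. Sox11 ranged from 368 in HT fluoxetine female 3 to 1038 in HT vehicle male 5, with 621 ± 126 in WT and 591 ± 147 in HT. For both genes the highest group mean was that of WT fluoxetine males and the lowest that of WT fluoxetine females, as for Dcx, and neighbouring groups again differed by less than their SD. The differences between HT and WT were -0.17 ± 0.12 for Sox4 and -0.09 ± 0.08 for Sox11, with limma adjusted p of 0.525 and 0.656.

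Dcx, Sox4, Sox11 and Dpysl3 varied together from library to library. After the mean of each of the 12 groups was subtracted, Dcx correlated with Sox4 at Pearson r = 0.945 and Spearman rho = 0.933 over the 58 libraries, and with Dpysl3 at r = 0.950 and rho = 0.934. The r of Dcx with Sox11 was 0.789, with rho = 0.759. Each of these had a permutation p of 1e-05, the smallest that 100000 permutations within groups can give, and an adjusted p of 4e-05 over the 28 pairs of members, of which 16 were under 0.05. Without the 2 libraries farthest from the median of the other gene of the pair, the values of r were 0.934, 0.943 and 0.747.

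The same 4 genes followed the olfactory bulb markers of the library, taken as the mean log2 level of the 9 genes. For Dcx r was 0.955 and rho 0.942, and for Dpysl3 r was 0.918 and rho 0.902. Sox4 had r = 0.915 and rho = 0.904, and Sox11 had r = 0.781 and rho = 0.761. All of them had a permutation p of 1e-05 and an adjusted p of 3.71e-05 over 104 relations, of which 63 were under 0.05. Without the 2 farthest libraries, HT vehicle male 5 and WT vehicle male 2, r was 0.948, 0.902, 0.900 and 0.743 in the same order. The marker level spread continuously over 6.423 log2 units within groups, with no gap wider than 0.727. The slope was 0.373 log2 units per unit of the marker level for Dcx, 0.241 for Sox4, 0.165 for Dpysl3 and 0.136 for Sox11. The marker level shared 91.2% of the within-group variance of Dcx, 84.2% of that of Dpysl3, 83.8% of that of Sox4 and 61.0% of that of Sox11. With a list of 18 other young neuron genes r was 0.93 for Dcx, 0.956 for Dpysl3, 0.958 for Sox4 and 0.891 for Sox11. The matching rho were 0.918, 0.95, 0.964 and 0.896. These r were higher than with the olfactory bulb markers for all but Dcx. The part of olfactory bulb tissue in these values was not tested.

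**Figure D2:**
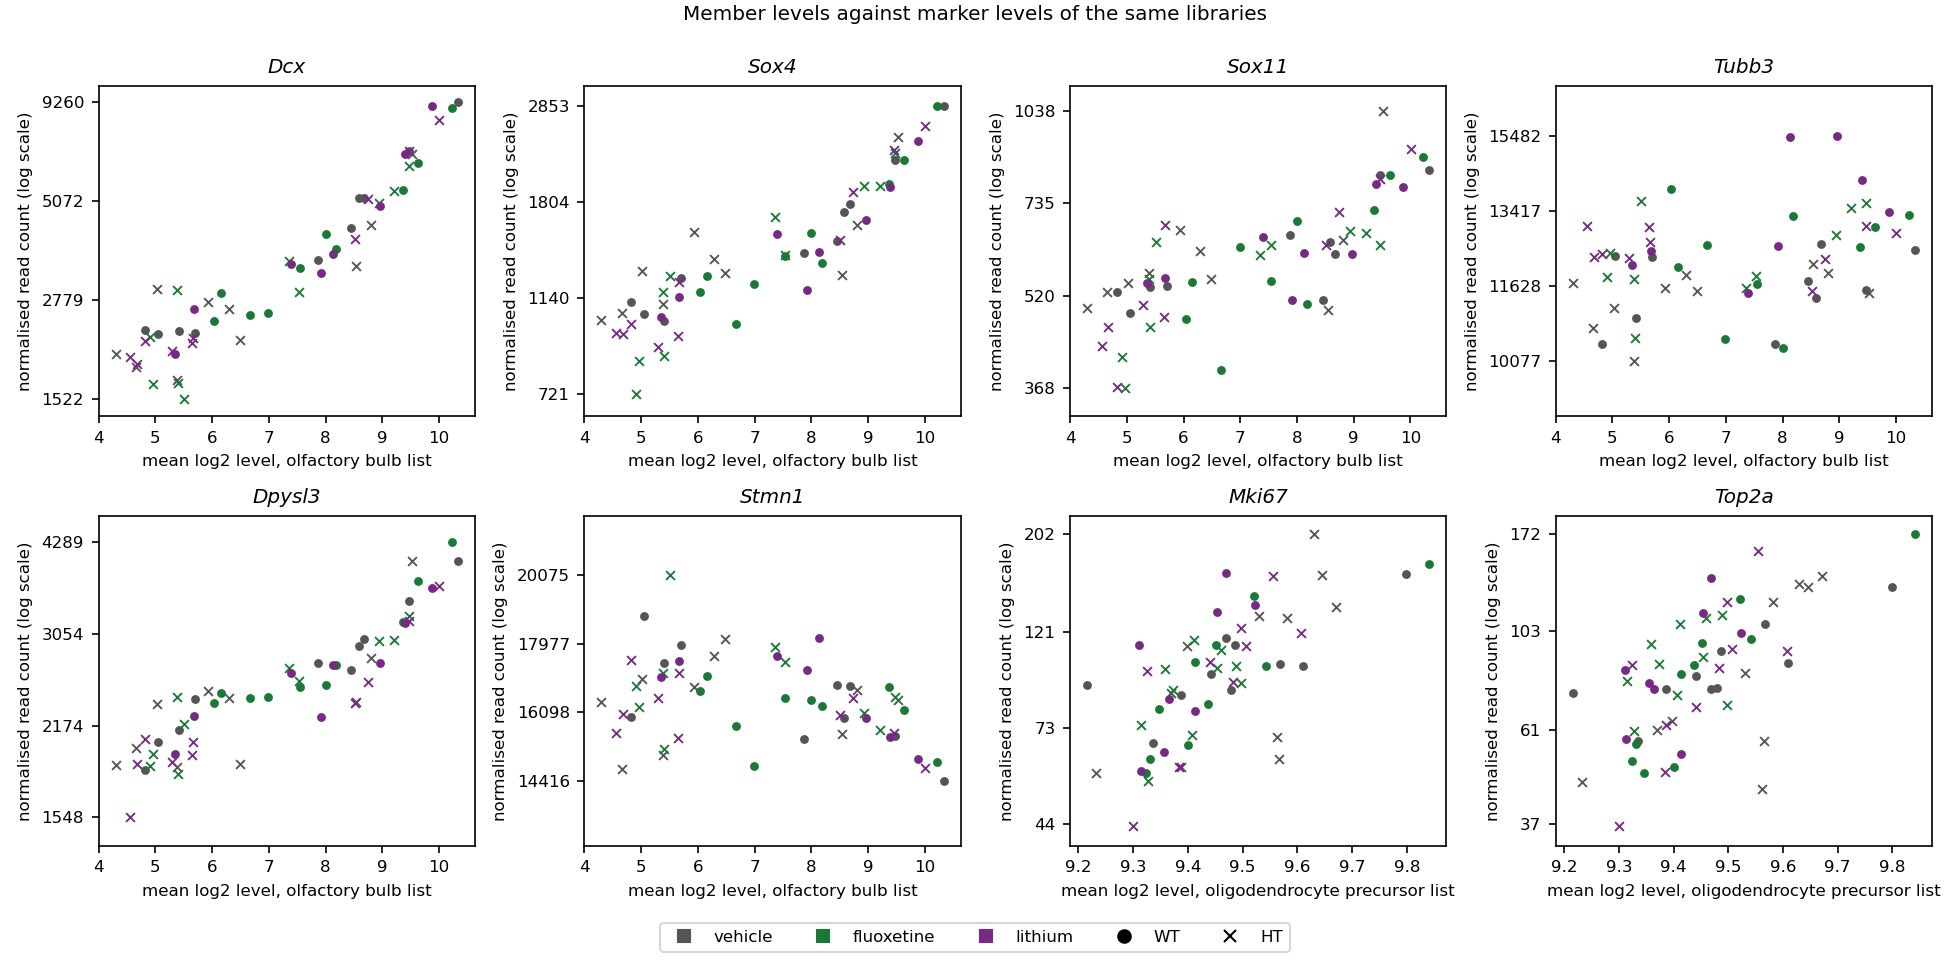
Normalised read count (log axis) of each gene against the mean log2 level of the olfactory bulb list, or of the oligodendrocyte precursor list for Mki67 and Top2a, with a point per library, coloured by treatment and shaped by genotype. Dcx, Sox4, Sox11 and Dpysl3 climb with the olfactory bulb list, with Dcx going from 1522 to 9260, while Tubb3 shows a wide scatter and Stmn1 tends downward.

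With the olfactory bulb level of each library as a covariate, the differences between HT and WT became -0.02 ± 0.06 for Dcx and -0.04 ± 0.04 for Dpysl3, with unadjusted limma p of 0.695 and 0.314. The values for Sox4 and Sox11 were 0.07 ± 0.05 and 0.05 ± 0.05, so their sign turned. Without the covariate, 0 of the 9 olfactory bulb markers lay above 0 in the same comparison, with a median of -0.91. None of them was called, where 1.07% of all genes were, although 4 had an unadjusted limma p under 0.05. With the olfactory bulb level removed as well as the group means, the r of Dcx was 0.595 with Sox4, 0.625 with Dpysl3 and 0.234 with Sox11, and that of Sox4 was 0.668 with Sox11.

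The 3 genes nearest to Dcx in their pattern over the 58 libraries were Ptpro (r = 0.983), Gng4 (0.976) and Dlx1 (0.976). They came out of 12590 protein-coding genes averaging 50 or more, without predicted genes and clones. Gng4 ran from 1145 to 10549. Those nearest to Sox4 were Dlx2, Dlx1 and Meis2, with r from 0.958 to 0.961. Dlx1, Dlx2 and Meis2 encode homeodomain factors of interneurons from the ventral forebrain. Dpysl3 was closest to Fam126a (r = 0.967), Meis2 and Ptpro, and Sox11 to Cd24a (0.899), a surface protein of young neurons, Sox4 and Ybx1. In the opposite direction, the mean log2 level of 11 mature neuron genes had r = -0.704 with Dcx and r = -0.807 with Sox11, with rho of -0.693 and -0.827 and a permutation p of 1e-05 each.

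Other genes of young neurons, 18 in a list that left the members out, were compared between the genotypes over the 3 treatments. Marcksl1, a membrane-bound actin regulator, fell by 0.19 ± 0.045 in HT (limma adjusted p = 0.0201). It was the 1 gene of the 18 that passed, where 1.07% of all genes were called, and 8 of the 18 had an unadjusted limma p under 0.05. In all 5 of the 18 lay above 0, with a median of -0.19 against -5.8e-06 over all genes. Draxin, a secreted axon guidance protein, missed the threshold at -0.76 ± 0.21 (limma adjusted p = 0.0558). Nrep lay on the other side at 0.14 ± 0.060 (limma adjusted p = 0.261). In the same comparison 0 of 9 olfactory bulb genes and 1 of 8 stem cell genes lay above 0, the latter with a median of -0.14 and 4 at an unadjusted limma p under 0.05. Of the mature neuron genes 11 of 11 lay above 0, 4 of them at an unadjusted limma p under 0.05. No gene of these marker lists was called. With the olfactory bulb level as a covariate, Marcksl1 was at -0.13 ± 0.038 and missed the threshold (limma adjusted p = 0.0892). Then 10 of the 18 lay above 0, with a median of 0.0094, and the 1 called was Nrep, at 0.24 ± 0.041 (limma adjusted p = 0.000433). With the microglia level as a covariate Marcksl1 also missed, at -0.17 ± 0.046 (limma adjusted p = 0.0581). With the precursor or the endothelial level, 2 of the 18 were called lower, Marcksl1 among them (limma adjusted p = 0.0154 and 0.00996). These covariate fits of list genes were chosen after the data were seen, and the part of the stem cell and mature neuron markers was not tested.

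Fluoxetine and lithium called 0 of the 18 young neuron genes by limma in the means over both genotypes, where 2.55% and 2.67% of all genes were called. Of the 18, 0 and 1 had an unadjusted limma p under 0.05. Without a covariate 11 and 8 of the 18 lay above 0, with medians of 0.011 and -0.011. With the olfactory bulb level as a covariate, 1 of the 18 was called lower with each drug. Then 4 lay above 0 with fluoxetine and 2 with lithium, with medians of -0.039 and -0.060. With the precursor, endothelial or microglia level 0 were called. These covariate fits, too, were chosen after the data were seen.

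Tubb3 (ENSMUSG00000062380, chromosome 8, 123411424 to 123422015, plus strand) encodes a neuron-specific beta-tubulin. It rose with lithium, and it was the 1 member that passed the threshold in any of the 13 comparisons. In WT vehicle females the counts of Tubb3 were 12596, 11542, 12315, 10407 and 11727, and in WT vehicle males 10415, 12458, 11360, 12283 and 10935. With lithium WT females had 15462, 12544, 13394 and 11472 and WT males 15482, 12105, 12419 and 14220. WT lithium female 1 and male 1 were the highest of all 58 libraries, and WT lithium female 4 lay below most vehicle libraries of its sex.

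In HT vehicle females the Tubb3 counts were 11906, 11505, 12127, 11583 and 10077, and in HT vehicle males 10724, 11868, 11151, 11698 and 11471. With lithium HT females had 13035, 12655, 12242, 12275 and 13028 and HT males 13002, 12870, 12264, 11505 and 12346. HT lithium females lay above every HT vehicle female, and 4 of the 5 HT lithium males lay above every HT vehicle male. Fluoxetine libraries spread over a similar range, with a lowest, median and highest count of 10326, 12539 and 13994 in WT and 10523, 12112 and 13685 in HT.

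In the mean of both genotypes Tubb3 was 11507 ± 713 (SD, n = 20) with vehicle and 12907 ± 1133 (n = 18) with lithium. The rise was 0.17 ± 0.038 on the log2 scale, or 1.124-fold, with an interval from 0.09 to 0.24 (limma adjusted p = 0.00884). In that comparison limma called 2.67% of all genes and 1 of the 8 members. Of the 18 lithium libraries, 17 lay above the mean of the vehicle libraries of their sex and genotype, and 9 lay above the highest vehicle library. The median change of the 8 members was -0.01, with 2 of them above 0, against -0.00066 over all genes.

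Within genotypes the Tubb3 difference for lithium was 0.20 ± 0.055 in WT, in 7 of 8 libraries, and 0.14 ± 0.052 in HT, in 10 of 10 libraries. Neither passed on its own (limma adjusted p = 0.161 and 0.245), and the test of their difference gave -0.07 ± 0.076 (limma adjusted p = 0.998). For fluoxetine, measured against the same vehicle libraries, the mean difference of Tubb3 was 0.10 ± 0.037 and missed the threshold (limma adjusted p = 0.143).

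Leaving out any 1 library of the comparison kept Tubb3 past the threshold in 38 of 38 fits, with changes from 0.149 to 0.185 and limma adjusted p from 0.00378 to 0.0256. Without both WT lithium female 1 and male 1, left out together after their values were seen, the Tubb3 change was 0.13 ± 0.037 and missed the threshold (limma adjusted p = 0.0607). Females alone gave 0.158 and males alone 0.179, and neither passed (limma adjusted p = 0.290 and 0.196).

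Tubb3 was also read against the cell markers. Over the 58 libraries with group means subtracted, its r was 0.362 with the olfactory bulb list, -0.538 with the oligodendrocyte precursor list and -0.579 with the microglia list, with rho of 0.367, -0.519 and -0.528 and permutation adjusted p of 0.00885, 3.71e-05 and 0.000243 over 104 relations. Without the 2 farthest libraries these r were 0.349, -0.427 and -0.487. With lithium, in the mean of both genotypes, 0 of 10 oligodendrocyte precursor genes, 1 of 9 microglia genes and 0 of 8 endothelial genes lay above 0. Cx3cr1, the fractalkine receptor of microglia, fell by 0.23 ± 0.053 and Kdr, a VEGF receptor of endothelium, by 0.33 ± 0.087 (limma adjusted p = 0.00897 and 0.0308). No other gene of these lists was called.

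The summed count of the 9 microglia genes, none of them at 0 in any library, ran from 9358 to 11934 in WT vehicle and from 9233 to 11690 in WT lithium libraries. In HT it ran from 10293 to 13095 with vehicle and from 9455 to 12443 with lithium. With a list's mean log2 level as a covariate, the Tubb3 rise with lithium was 0.161 for olfactory bulb, 0.131 for oligodendrocyte precursors, 0.130 for microglia and 0.113 for endothelium. All of these stayed past the threshold, with limma adjusted p of 0.00514, 0.0207, 0.0191 and 0.0490, the last 2 covariates having been chosen after the data were seen.

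Other beta-tubulins were read beside Tubb3 from a list of 18 paralogs of the members. Tubb5, the widely expressed beta-tubulin, rose with lithium by 0.14 ± 0.032 (limma adjusted p = 0.00996). It was the 1 paralog of the 18 called there, where 2.67% of all genes were called. With fluoxetine 3 of the 18 rose and none fell, where 2.55% of all genes were called. Tubb5 rose by 0.12 ± 0.031, Tubb2a, an abundant neuronal beta-tubulin, by 0.14 ± 0.039, and Dpysl4, a relative of Dpysl3, by 0.10 ± 0.025, with limma adjusted p of 0.0306, 0.0414 and 0.0227. With the endothelial level as a covariate none of these 3 passed with fluoxetine (limma adjusted p = 0.0596, 0.125 and 0.0547 in the same order). With the oligodendrocyte precursor level Tubb5 and Tubb2a did not pass (limma adjusted p = 0.0542 and 0.0819), while Dpysl4 did (0.0416). All 3 passed with the olfactory bulb or the microglia level (limma adjusted p from 0.0161 to 0.0339). Tubb5 with lithium stayed past the threshold under the olfactory bulb, precursor, microglia and endothelial covariates, at 0.121 to 0.143. Tubb2a was at 0.09 ± 0.040 with lithium (limma adjusted p = 0.254) and Tubb4b at 0.11 ± 0.040 (limma adjusted p = 0.128). Tubb2b, a tubulin of young neurons, was at -0.06 ± 0.10 with lithium. The drugs share their vehicle libraries, so these values stand side by side and are not independent, and reads that match several tubulin genes could have been split between them.

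**Figure D3:**
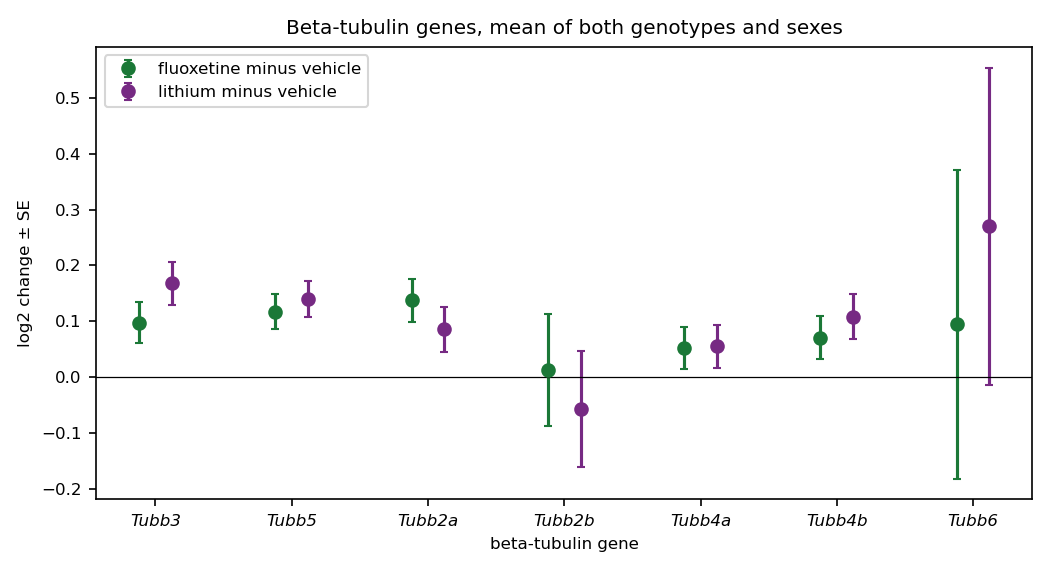
Log2 changes of 7 beta-tubulin genes with fluoxetine and with lithium against vehicle, in the mean of both genotypes and sexes, with bars for the standard error. Tubb3 and Tubb5 have the changes farthest from 0 in units of their error with lithium (0.17 ± 0.038 and 0.14 ± 0.032), and Tubb6 has wide errors.

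The pattern of Tubb3 over the 58 libraries was nearest to those of Tubb2a (r = 0.887), the alpha-tubulin Tuba1a (0.840) and Ndrg4 (0.829). Stmn1 (ENSMUSG00000028832, chromosome 4, 134468320 to 134473843, plus strand), which encodes the microtubule-destabilising protein stathmin, was nearest to its paralog Stmn2 (r = 0.906), then to Ppp2r2b and Ywhab. Stmn1 ran from 14416 in WT vehicle male 2, the library highest in Dcx, to 20075 in HT fluoxetine female 4, the library lowest in Dcx. Its r was -0.440 with Dcx and -0.422 with the olfactory bulb list, with rho of -0.357 and -0.364 and permutation adjusted p of 0.00715 and 0.00689. Without the 2 farthest libraries these r were -0.370 and -0.397.

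Stmn1 showed the narrowest intervals of the 8. It was 16457 ± 1169 (n = 20) with vehicle, 16503 ± 1164 (n = 20) with fluoxetine and 16379 ± 1004 (n = 18) with lithium. The lithium interval ran from -0.07 to 0.06 and that of HT against WT from -0.05 to 0.06, with limma adjusted p of 0.981 and 0.982. Its paralog Stmn4 rose in HT over the 3 treatments by 0.07 ± 0.018 (limma adjusted p = 0.0245). With the olfactory bulb or the microglia level as a covariate Stmn4 was at 0.05 ± 0.016 and 0.06 ± 0.018 and missed the threshold (limma adjusted p = 0.12 and 0.0646). It passed with the precursor or the endothelial level (limma adjusted p = 0.0158 and 0.0197).

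Mki67 (ENSMUSG00000031004, chromosome 7, 135689784 to 135716361, minus strand) encodes Ki-67, a coat protein of mitotic chromosomes, and Top2a (ENSMUSG00000020914, chromosome 11, 98992943 to 99024189, minus strand) the DNA topoisomerase of dividing cells. Since both genes moved together across libraries, the 250 bases before each RefSeq start are shown (RefSeq, GRCm38.p6, minus strand), at chr7:135716380-135716629 for Mki67 and chr11:99024190-99024439 for Top2a. Capitals mark the CCAAT box (CCAAT, or ATTGG on the other strand) and the cell cycle homology region (TTTGAA, or TTCAAA on the other strand), letters known from promoters of cell cycle genes.
Mki67: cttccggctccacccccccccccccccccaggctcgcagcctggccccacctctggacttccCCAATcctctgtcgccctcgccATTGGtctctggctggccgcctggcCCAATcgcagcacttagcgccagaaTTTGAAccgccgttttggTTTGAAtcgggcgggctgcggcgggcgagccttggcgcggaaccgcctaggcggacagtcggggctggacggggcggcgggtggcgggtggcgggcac
Top2a: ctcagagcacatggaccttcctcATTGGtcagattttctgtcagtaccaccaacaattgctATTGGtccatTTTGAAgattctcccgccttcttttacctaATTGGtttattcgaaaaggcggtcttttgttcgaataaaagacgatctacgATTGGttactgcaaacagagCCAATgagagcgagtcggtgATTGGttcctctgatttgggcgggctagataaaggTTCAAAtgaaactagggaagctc
Mki67 held 3 CCAAT matches and Top2a 6, and each held 2 matches to TTTGAA, with no overlap between matches. Such matches were not particular to these 2 genes. The Sox4 window of 236 bases also held 3 CCAAT matches but none to TTTGAA, and that of Sox11 held 1 of each. The longer Dcx window, of 158 bases, held 1 CCAAT match and none to TTTGAA, and that of Tubb3, of 121 bases, held neither. Of 32851 RefSeq windows of 250 bases, 33.8% held at least 1 CCAAT and 16.0% at least 1 TTTGAA on either strand. The share of windows with several matches was not counted. These are letter matches only, and no binding was measured.

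The counts of Mki67 were 67.5, 102, 91.3, 164 and 96.8 in WT vehicle females and 117, 86.8, 89.1, 113 and 101 in WT vehicle males. With fluoxetine WT females had 173, 82.7, 80.6, 57.7 and 61.8 and WT males 66.5, 101, 146, 103 and 113. With lithium WT females had 85, 139, 64.2 and 165 and WT males 58.2, 134, 113 and 79.6. The vehicle males were the tightest of these groups, and the highest library, WT fluoxetine female 1, was also the highest of all 58 in Top2a.

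In HT vehicle females Mki67 was 87.6, 61.8, 69.5, 202 and 163, and in HT vehicle males 130, 138, 112, 57.6 and 131. With fluoxetine HT females had 55.1, 110, 100, 101 and 70.1 and HT males 92.2, 74.2, 88.9, 99.4 and 116. With lithium HT females had 59.4, 123, 103, 92.7 and 43.6 and HT males 120, 59.5, 112, 162 and 98.2. The ranges of all 12 groups overlapped. The group means ran from 84.3 ± 32.4 (SD, n = 5) in HT lithium females to 117 ± 62.2 in HT vehicle females, and the 11 neighbouring pairs were closer than the larger SD.

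Mki67 was 109 ± 37.3 (n = 20) with vehicle, 94.6 ± 29.2 (n = 20) with fluoxetine and 101 ± 36.2 (n = 18) with lithium over both genotypes. Its log2 differences were -0.19 ± 0.16 for fluoxetine and -0.13 ± 0.16 for lithium, with intervals from -0.50 to 0.13 and from -0.45 to 0.20 (limma adjusted p = 0.585 and 0.767). Top2a was 86.6 ± 29.7, 87.3 ± 29.5 and 86.2 ± 31.1 in the same groups, with differences of 0.02 ± 0.16 and -0.01 ± 0.17. Between HT and WT, Mki67 and Top2a differed by -0.03 ± 0.13 and -0.01 ± 0.13, with limma adjusted p of 0.940 and 0.982. Changes within these intervals remain compatible with these values.

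The 34 other genes of the cell cycle list, from cyclins and mitotic kinases to the MCM helicase, gave 0 calls by limma in all 13 comparisons. The share of all genes called ran from 0% to 4.83% over these comparisons. In the means over both genotypes 1 of the 34 had an unadjusted p under 0.05 with fluoxetine and 1 with lithium, and over the 3 treatments none did in HT against WT. Their median changes were -0.02, 0.0086 and -0.01. The summed count of the 34 ran from 2926 to 4264 over all libraries.

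Mki67 and Top2a correlated with each other at r = 0.906 and rho = 0.891 over the 58 libraries with group means subtracted (permutation p = 1e-05, adjusted p = 4e-05), and at r = 0.888 without the 2 farthest libraries. With the oligodendrocyte precursor level removed the r of Mki67 with Top2a was 0.808, and with the olfactory bulb level removed 0.900. The genes nearest to Mki67 were Top2a, Prc1 (r = 0.812) and Kif11 (0.803), and those nearest to Top2a were Mki67, Prc1 (0.833) and Hmgb2 (0.785). Prc1 and Kif11 encode proteins of the mitotic spindle.

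Both proliferation genes followed the oligodendrocyte precursor list, with r = 0.702 and rho = 0.732 for Mki67 and r = 0.729 and rho = 0.748 for Top2a (permutation p = 1e-05). Without WT fluoxetine female 1 and WT vehicle female 4, the 2 farthest libraries, r was 0.648 and 0.683. The list shared 49.3% of the within-group variance of Mki67 and 53.2% of that of Top2a, and the part of precursor cells in these values was not tested. The summed count of its 10 genes ran from 9127 to 14221 over all libraries. By group it ran from 9127 to 13493 in WT vehicle, 9342 to 14221 in WT fluoxetine and 9241 to 11284 in WT lithium libraries. In HT it ran from 9230 to 13231 with vehicle, 9275 to 11397 with fluoxetine and 9625 to 11895 with lithium. Precursors were not the only cells whose list Mki67 and Top2a followed. Their r was 0.517 and 0.541 with the microglia list, 0.462 and 0.525 with the astrocyte list and 0.421 and 0.478 with the endothelial list. Permutation adjusted p ran from 0.000315 to 0.0176. With the 34 other cell cycle genes r was 0.892 and 0.923. The part of these other cells was not tested.

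With the olfactory bulb list, r was -0.278 for Mki67 and -0.236 for Top2a, with rho of -0.284 and -0.266, and neither passed (permutation adjusted p = 0.0732 and 0.135). The striatum list gave r = 0.649 for Mki67 and 0.669 for Top2a, with rho of 0.658 and 0.651 (permutation p = 1e-05), and 0.630 and 0.643 without the 2 farthest libraries. Of its 10 genes Six3 was at 0 in 16 libraries. The part of striatal tissue in these values was not tested. Tubb3 ran against both proliferation genes, at r = -0.553 with Mki67 and -0.507 with Top2a, with rho of -0.549 and -0.505 (permutation adjusted p = 0.000175 and 0.000218). With the oligodendrocyte precursor level removed, these r of Tubb3 were -0.292 and -0.199.

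**Figure D4:**
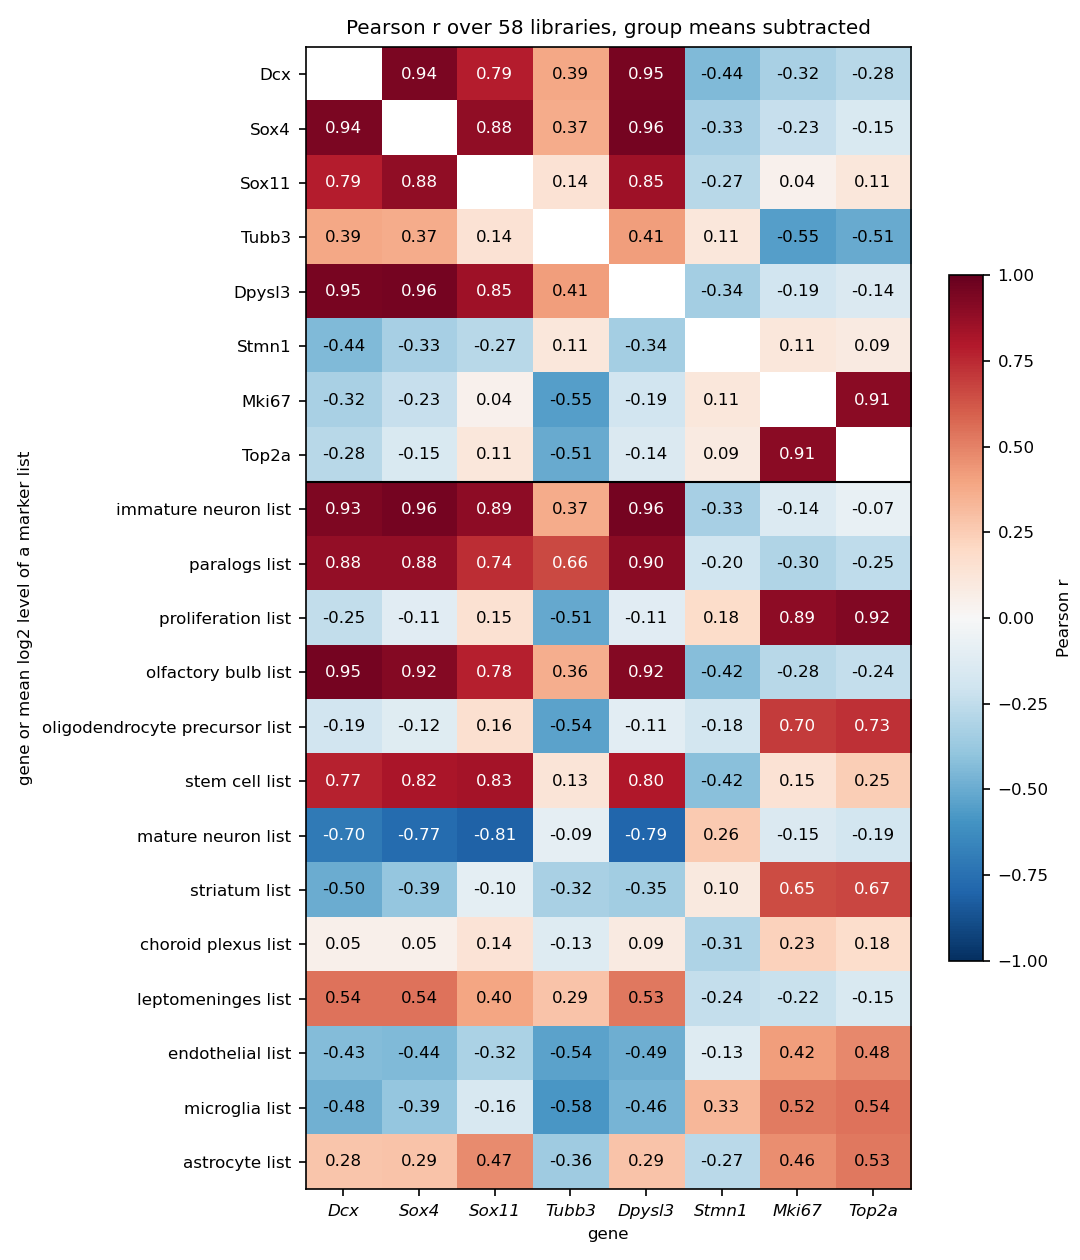
Pearson r between the 8 genes (columns) and each other or the mean log2 level of marker lists (rows), over 58 libraries with group means subtracted, with red for positive and blue for negative values. Dcx, Sox4, Sox11 and Dpysl3 form a block with the olfactory bulb list (r from 0.781 to 0.955) and the immature neuron list (0.891 to 0.958). Mki67 and Top2a form another with the proliferation list (0.892 and 0.923) and the oligodendrocyte precursor list (0.702 and 0.729). Tubb3 and Stmn1 have lower values with the olfactory bulb list (0.362 and -0.422).

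In the other 12 comparisons limma, edgeR and DESeq2 called 0 of the 8 members each. HT against WT under vehicle had 0 members with an unadjusted limma p under 0.05, with 0.0181% of all genes called. Over the 3 treatments HT against WT had 2 such members, Dcx and Dpysl3, with 1.07% of genes called. Fluoxetine had 0 such members in WT and 1 in HT (Tubb3), with 0.367% and 0% of genes called, and 1 in the mean of both genotypes (Tubb3), with 2.55% called. For the count of 0 in HT, 1526 genes had an unadjusted limma p under 0.05, and edgeR called 0 genes and DESeq2 18.

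Lithium against vehicle had 1 member with an unadjusted limma p under 0.05 in each genotype, Tubb3, with 0.0301% of genes called in WT and 0.385% in HT. Lithium against fluoxetine had 1 in WT, again Tubb3 at 0.12 ± 0.055, and 0 in HT, where 4.83% and 1.95% of genes were called. The tests of a difference of the drug effects between genotypes had 0 such members, with 0% of genes called for fluoxetine and 0% for lithium. There, 793 and 609 genes had an unadjusted limma p under 0.05, edgeR called 0 genes in each, and DESeq2 called 1 and 4. Males against females had 0 such members, with 0.114% of genes called, and the differences of Dcx and Mki67 were 0.10 ± 0.18 and 0.12 ± 0.13.

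**Figure D5:**
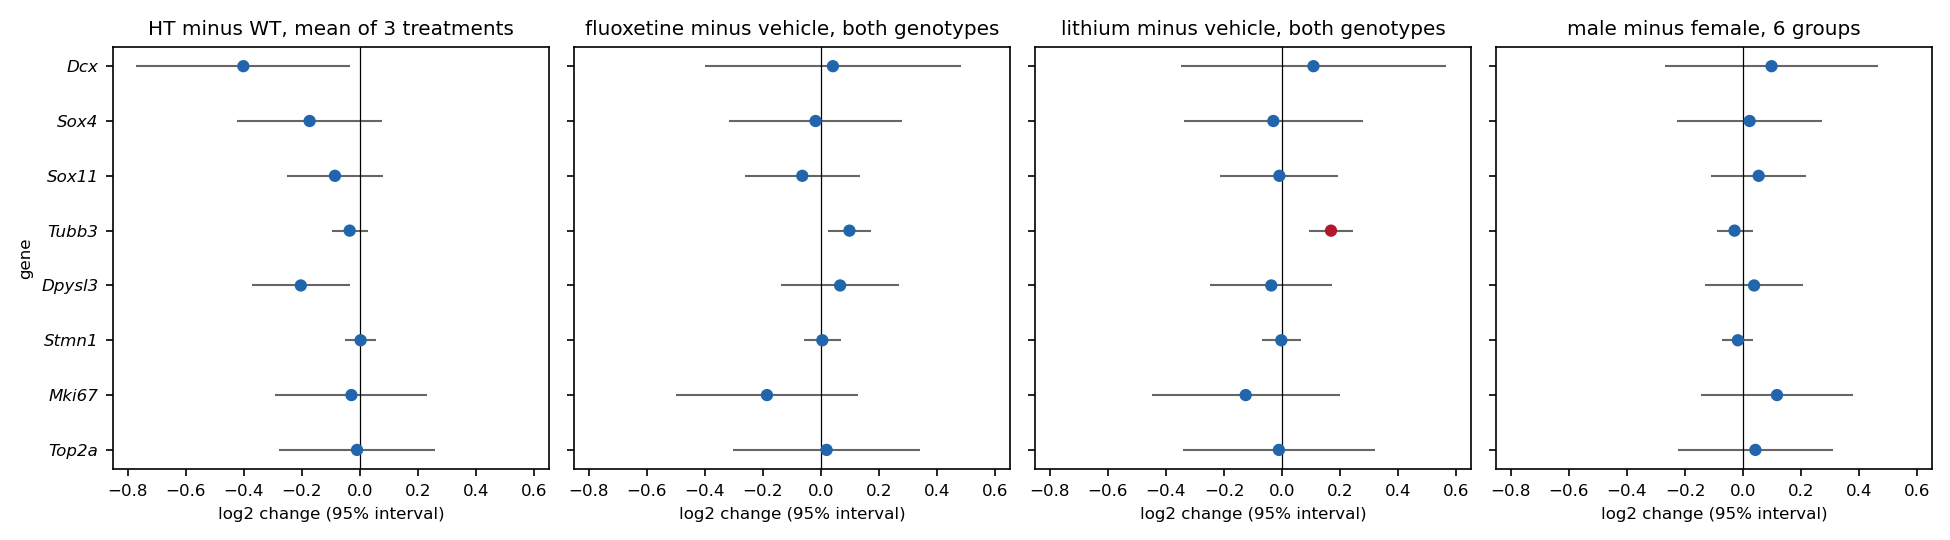
Log2 changes of the 8 genes in 4 comparisons (panels), with bars for the 95% interval of the limma model and a red point for a gene with an adjusted p under 0.05. Tubb3 with lithium, at 0.17 with an interval from 0.09 to 0.24, is the 1 red point, and the bars of Dcx, Mki67 and Top2a are several times wider than those of Tubb3 and Stmn1.

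Genes of neural stem cells, 8 in all, were read as a related list. With fluoxetine, in the mean of both genotypes, Sox2, a stem cell and glial factor, fell by 0.25 ± 0.068 and Hes5, a Notch target, rose by 0.34 ± 0.098 (limma adjusted p = 0.0306 and 0.0454). In that comparison 2.55% of all genes were called. Endothelial markers moved in the same comparison, with Kdr and Cdh5, an endothelial cadherin, falling by 0.34 ± 0.084 and 0.19 ± 0.049 (limma adjusted p = 0.0214 and 0.0264) and 6 of 8 at an unadjusted p under 0.05. Of the 10 precursor genes 3 had an unadjusted limma p under 0.05, with Olig2 at -0.22, Gpr17 at -0.19 and Cspg4 at -0.14, and none was called. With the endothelial level as a covariate Sox2 and Hes5 were at -0.23 ± 0.070 and 0.31 ± 0.10 and missed the threshold (limma adjusted p = 0.0567 and 0.0735). With the precursor level Sox2 was at -0.19 ± 0.057 and missed (limma adjusted p = 0.0566), while Hes5 passed (0.0426). Both passed with the olfactory bulb level (limma adjusted p = 0.0105 and 0.0372) and with the microglia level (0.0252 and 0.0293).

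With lithium against vehicle 0 of the 8 stem cell genes were called by limma in the mean of both genotypes, with 1 at an unadjusted p under 0.05. Of all genes 2.67% were called there. Lithium against fluoxetine gave 1 lower in WT, Hes5 at -0.50 ± 0.15, and 1 higher in HT, Sox2 at 0.36 ± 0.096 (limma adjusted p = 0.0382 and 0.0338). Of all genes 4.83% were called in WT and 1.95% in HT. HT against WT over the 3 treatments gave 0 calls, where 1.07% of all genes were called, with 4 of the 8 at an unadjusted limma p under 0.05. Hes5 was closest there, at -0.30 ± 0.082 (limma adjusted p = 0.0508), and it passed with the precursor, endothelial or microglia level as a covariate (limma adjusted p = 0.0417, 0.0413 and 0.0373) but not with the olfactory bulb level (0.179). The mean log2 level of the 8 genes had r = 0.833 with Sox11 and 0.817 with Sox4, but 0.146 with Mki67 and 0.247 with Top2a, with rho of 0.856, 0.810, 0.125 and 0.231 and permutation adjusted p of 3.71e-05, 3.71e-05, 0.347 and 0.116. That level was highest in WT fluoxetine male 5 and WT vehicle male 2 (9.325 and 9.286). These libraries were also the highest in the olfactory bulb list (10.223 and 10.332), and the part of olfactory bulb tissue here was not tested.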

How the data were processed

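Prefrontal cortex RNA was sequenced in 58 libraries, prepared with a stranded poly(A) kit per the labels' protocols. The deposited values are a linear signal that proved to be whole reads scaled by a size factor. The submitters' processing notes name Salmon 0.11.2, DESeq2 1.19.11, R 3.6.0 and the build GRCm38. The annotation and the sharing of reads between similar genes are not given in the sources used here. Whole reads were recovered for 100% of values at a tolerance of 0.0001. For 6 libraries the step of values was close to 1, and they were included in the recovered reads all the same. Depth was 22.9 to 35.01 M reads, median 26.73 M, with size factors from 0.787 to 1.229. GENCODE M21 named 18077 of 18088 identifiers and gave positions and exon lengths.

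limma 3.58.1 in R 4.3.3 was fitted with a mean-variance trend to log2(value + 1) of the 16606 genes averaging 10 or more. The model held 12 group means and 46 residual degrees of freedom. The 13 comparisons gave group means equal weight, with Benjamini-Hochberg adjustment over all genes tested. The fits were tested on simulated data.

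Correlations used log2 values with group means subtracted and 2-sided tests with 100000 permutations of libraries within groups. A marker list entered as the mean log2 level of its genes, in place of the sum planned. Correlations with the 13 marker lists and between members were adjusted as families of 104 and 28. The labels name no batch.

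Named genes were the members, up to 3 called genes per list and comparison with the smallest p, the 3 genes with the highest r to each member, and marker genes beside a result. Candidates for the highest r were protein-coding genes averaging 50 or more, without predicted genes, clones or mitochondrially encoded genes. Where a list had no call, its gene with the smallest p could be named. The members and lists were chosen with earlier results of these data known. Other beta-tubulins were plotted from the paralog list, and Gng4's range, Draxin, Nrep, Tubb2a, Tubb2b and Tubb4b with lithium, the precursor genes beside Sox2 and the choice of promoter letters were added after values were seen.

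Alternatives were a minimum mean of 50 or none, a pseudocount of 0.5 or 5, upper-quartile rescaling, median centring, array weights, only the groups compared, each sex alone, marker covariates, the replicate number as a block, each library left out, and edgeR 4.0.16 on 17757 genes and DESeq2 1.42.0 on the recovered reads. Microglia, endothelial and joint covariates, covariate fits of list genes, the block by library-name number, partial correlations and the removal of both WT lithium libraries highest in Tubb3 were added after seeing the data. Promoters came from RefSeq, with a window for 6 of the 8 members. Uncx and Slc4a5 of the marker lists are not analysed here.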

Additional observations from a re-analysis of the deposited data

Results flagged for a closer look

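In groups of 4 or 5 libraries, 9 of 96 sets of member values held a library far from the others, 8 of them on the high side. The gap to its nearest neighbour there exceeded Dixon's 95% critical value of 0.710 for 5 libraries or 0.829 for 4. The gaps were taken on the counts and not on the log2 scale, where a high library lies closer to the others. For normally distributed values chance gives about 1 such set in 20. Counts skewed to the high side can give more, so the number found was not tested against chance. Members that follow each other are not independent sets.

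HT vehicle male 5 stood apart in 4 genes. Its counts were 6754 for Dcx (others 1846 to 2959), 2463 for Sox4 (others 1024 to 1376), 1038 for Sox11 (others 497 to 616) and 3998 for Dpysl3 (others 1880 to 2403). With group means subtracted, it was 1 of the 2 libraries farthest from the median of the olfactory bulb list.

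Dcx was 9001 in WT lithium female 3 (others 3263 to 3662). Dpysl3 was 3646 in HT lithium male 2 (others 1898 to 2359) and 2717 in WT fluoxetine female 3 (others 2364 to 2455). Mki67 was 173 in WT fluoxetine female 1 (others 57.7 to 82.7), the library with the highest Top2a. On the low side, Sox11 was 368 in HT fluoxetine female 3 (others 630 to 662).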

How the results depend on the processing

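Of 5360 recomputed member values, 5 changed their call, all of Tubb3 with lithium. Another 564 values that passed in neither fit changed sign and were counted as the same call. In the mean of both genotypes the number of members called was 1, and it was 0 in females alone, 0 in males alone and 0 without both WT lithium female 1 and male 1. In WT it was 0, and 1 with array weights (Tubb3 0.211, limma adjusted p = 0.0141). Leaving out 1 library at a time, it ranged from 0 to 1 in WT, the 1 call coming without WT lithium female 4 (Tubb3 0.234, limma adjusted p = 0.0498).

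Replicate numbers were shared between groups but did not pair the libraries. Deviations of 309 same-numbered pairs had a mean correlation of -0.003, against 0.001 for other pairs, and 8 of 58 libraries were closest to their own number. With the number as a block, 1 member was called for lithium in the mean of both genotypes (Tubb3 0.17, limma adjusted p = 0.0137) and 0 in the other 12 comparisons. These numbers came from the titles, and in 2 libraries, WT lithium males 3 and 4, the number in the library name differs. With the numbers of the names, 308 pairs had a mean correlation of 0.0057 and the replicate block called the same 1 and 0 members (Tubb3 0.17, limma adjusted p = 0.0111). The fit on only the groups compared is the same as the first fit for HT against WT over 3 treatments and for the sexes. Correlations of members with lists under an adjusted p of 0.05 numbered 63 of 104, 65 without the 2 farthest libraries and 62 with a pseudocount of 5.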
